A study of Mus musculus with 2 samples.

Results

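Pericytes are the contractile mural cells that wrap capillaries, and 8 genes linked to them are described here. These are the growth factor gene Pdgfb, its receptor gene Pdgfrb and the surface protein genes Cspg4, Mcam and Anpep. The rest are the potassium channel genes Kcnj8 and Abcc9 and the signalling regulator gene Rgs5. All 8 were taken by symbol from the 18194 mouse genes that have a probe set annotated to a single symbol. The 8 genes carry 16 of the 34958 such probe sets. The genes were chosen by symbol with their MAS5 signals at both ages already known, so all values are descriptions and none is tested. RNA came from pooled lenses of wild-type C57/BL6 mice at postnatal day 7 (P7) and day 60 (P60). Each age is 1 pool on 1 Affymetrix array, without replicates, so differences between pools or animals cannot be separated from differences between ages. The labels do not say how many animals entered a pool or of which sex they were.

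The lens has no vessels of its own in the adult. Before and shortly after birth it is fed by the hyaloid vessels and the vascular network around its capsule, which regress in the young mouse. In growing vessels, endothelial cells release PDGF-B, which holds and expands the pericyte population through the receptor PDGFR-beta, and NG2 (from Cspg4), CD13 (from Anpep) and CD146 (from Mcam) are surface markers of these cells. Kcnj8 and Abcc9 encode the pore and the regulatory subunit of a potassium channel gated by ATP, and Rgs5 shortens signalling by G-protein-coupled receptors. None of these genes is specific to pericytes. Pdgfrb is also made by fibroblasts and smooth muscle, and Mcam and Pdgfb by endothelium.

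The 8 genes did not move as a unit. Signal of Rgs5 was far lower at P60 on all 4 of its probe sets, and that of Mcam was lower too, while signal of Pdgfrb was higher at P60 on both of its probe sets. Pdgfb and Abcc9 lay within 2-fold, Kcnj8 was lower by at least 1.61-fold with its P60 value under the floor, and Cspg4 and Anpep did not exceed the floor at either age. The floor is the median over both arrays, 103.9 in units of MAS5 signal, a brightness on a linear scale. A probe set above it on at least 1 array was counted as measured. Values under it were raised to it before ratios were taken, which makes the resulting fold a minimum, written "at least". A gene is represented by its probe set of highest mean log2 signal.

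In counts, 2 of the 6 measured genes lost at least 2-fold by P60, against 9.44% of the 13029 measured genes, and 1 was at least 2-fold higher, against 11.5%. Of the 11 measured probe sets 5 were at least 2-fold lower (background 10.6%) and 2 at least 2-fold higher (background 9.89%), and 4 of those 5 belong to Rgs5. The genes had been chosen with these ratios known, so the counts are not read against the background. The median log2 ratio of the 6 genes, P60 over P7, was -0.62, against 0.02 over all measured genes. The 6 ratios ran from -6.43 to 3.28, so this median describes no common shift. At P7, 11 of the 16 probe sets exceeded the floor, and at P60 6 did.

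**Figure D1:**
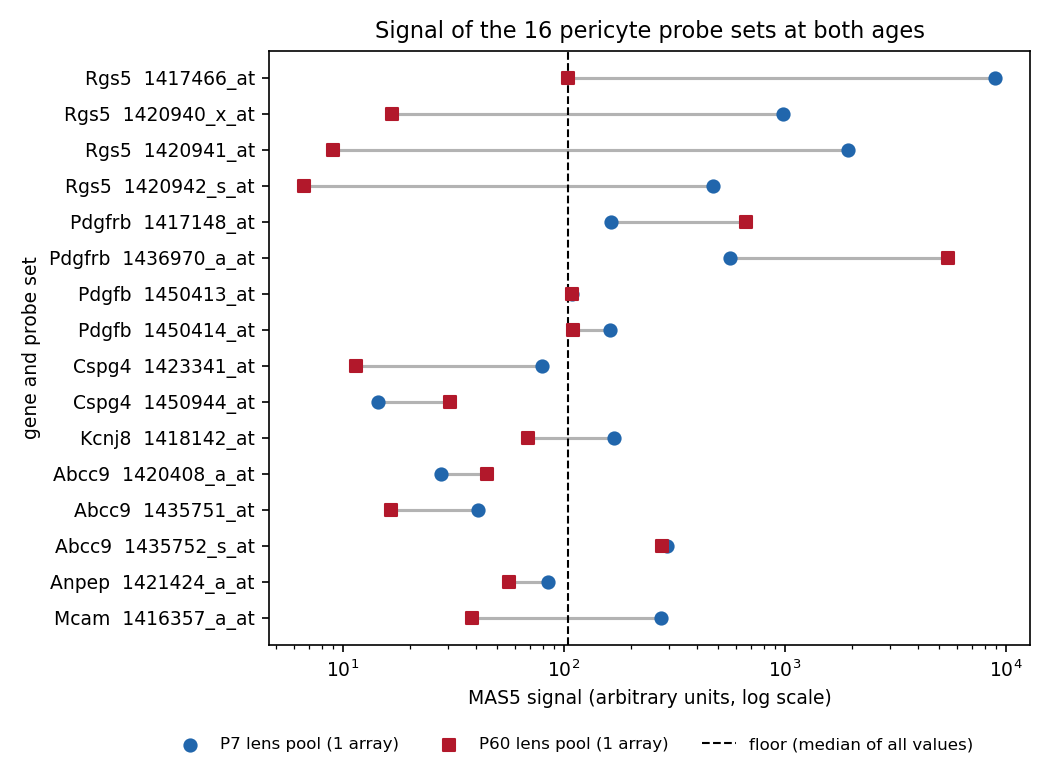
MAS5 signal (log scale) of the 16 probe sets of the 8 pericyte genes, with a circle for the P7 pool, a square for the P60 pool and a dashed line at the floor of 103.9. The Rgs5 circles lie between 474 and 8935 and its squares at or under the floor, whereas the Pdgfrb squares (667 and 5451) lie to the right of its circles (163 and 561).

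Rgs5 encodes a GTPase-activating protein that switches off G-alpha subunits of the Gi and Gq classes. Its brightest probe set (1417466_at) read 8935 at P7 and 104 at P60, a log2 ratio of -6.43 or 85.9-fold lower. The P60 value lay at the floor itself, so this fold is in practice a bound, and with the floor at 122.8, the 95th percentile of 86 probe sets of olfactory, vomeronasal and taste receptor genes, which are not known to be active in lens, the ratio was -6.18. The other probe sets read 1936 at P7 and 8.97 at P60 (1420941_at), 977 and 16.6 (1420940_x_at), and 474 and 6.66 (1420942_s_at). All 3 were thus under the floor at P60, and were at least 18.6-fold, 9.41-fold and 4.56-fold lower. These 3 probe sets share a source sequence in the platform annotation and are not independent of each other. Every Rgs5 probe set was high at P7 and at or under the floor at P60.

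Mcam encodes CD146, an adhesion molecule of pericytes and endothelium. Its only probe set (1416357_a_at) read 275 at P7 and 38.2 at P60, and was at least 2.65-fold lower. It was above the floor at P7 only, so its ratio of -1.41 is a bound.

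The stretches upstream of Rgs5 and Mcam are shown because these were the measured genes at least 2-fold lower at P60. A RefSeq promoter entry (GRCm38.p6) was found for 6 of the 8 genes. Each line gives the 250 bases before the annotated start on the plus strand, at chr1:169655251-169655500 for Rgs5 and chr9:44134408-44134657 for Mcam, with motif matches in capitals.
Rgs5: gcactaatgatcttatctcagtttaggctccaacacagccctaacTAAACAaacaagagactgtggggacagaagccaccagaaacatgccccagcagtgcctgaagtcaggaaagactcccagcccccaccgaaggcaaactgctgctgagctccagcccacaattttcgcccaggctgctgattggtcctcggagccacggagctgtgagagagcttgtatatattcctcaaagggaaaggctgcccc
Mcam: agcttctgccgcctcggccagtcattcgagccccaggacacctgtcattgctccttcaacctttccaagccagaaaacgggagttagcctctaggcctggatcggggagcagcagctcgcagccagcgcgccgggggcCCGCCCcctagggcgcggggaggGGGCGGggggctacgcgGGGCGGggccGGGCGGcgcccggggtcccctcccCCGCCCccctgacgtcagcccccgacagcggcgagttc
The motifs searched on both strands were the GC box GGGCGG, the TATA box TATAAA, a forkhead core TAAACA, the RBPJ motif GTGGGAA of Notch signalling and the hypoxia core ACGTG. The Rgs5 window held 1 forkhead core, from 205 to 200 bases before the start, and none of the other motifs. The Mcam window held 5 GC boxes and none of the others. Among 32851 promoter windows of this length, 12.0% held the forkhead core, 32.7% a GC box, 12.4% the TATA box, 5.42% the RBPJ motif and 16.6% the hypoxia core. The windows of the 2 genes therefore shared no motif of this search, and a match is a stretch of letters, not a bound site.

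Pdgfrb, the receptor tyrosine kinase that PDGF-B engages, went the other way. Its brighter probe set (1436970_a_at) read 561 at P7 and 5451 at P60, 9.72-fold higher, a log2 ratio of 3.28. Its other probe set (1417148_at) read 163 at P7 and 667 at P60, 4.11-fold higher. Both probe sets were above the floor at both ages and both were higher at P60, so neither fold is a bound. Pdgfrb stood at rank 51 from the top among 13029 measured genes. For scale, 2910 probe sets with a mean signal from 1600 to 6400 had log2 ratios with an SD of 0.91, and log2 ratios of probe sets for the same gene had a pooled SD of 0.58 over 4239 genes. The SD within genes leaves out differences between pools, and neither SD is a replicate error.

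The ligand gene Pdgfb was close to the floor at both ages. Its probe sets read 162 at P7 and 110 at P60 (1450414_at, log2 ratio -0.56) and 109 and 108 (1450413_at, 0.00). All 4 values were above the floor of 103.9, yet only the P7 value of 162 exceeded the receptor percentile of 122.8. Pdgfb was therefore not clearly detectable at P60.

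The channel genes were dim. Kcnj8, which encodes the pore subunit Kir6.1, read 168 at P7 and 68.6 at P60 (1418142_at), at least 1.61-fold lower. This is a minimum and does not place the gene within 2-fold. The measured probe set of Abcc9, which encodes the sulphonylurea receptor SUR2, read 294 and 277 (1435752_s_at), a log2 ratio of -0.09. Its other probe sets were under the floor at both ages, with 41.0 and 16.6 (1435751_at) and 27.8 and 44.7 (1420408_a_at). The 3 Abcc9 probe sets thus did not give a common picture, and the gene's value rests on 1 of them.

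Cspg4, which encodes the proteoglycan NG2 that also binds PDGF, was under the floor at both ages. Its probe sets read 79.9 at P7 and 11.5 at P60 (1423341_at) and 14.5 and 30.5 (1450944_at). Anpep, which encodes the aminopeptidase CD13, read 84.6 and 56.5 (1421424_a_at). No ratio is given for these genes, since neither was detectable over the floor, and this does not show that the transcripts were absent.

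**Figure D2:**
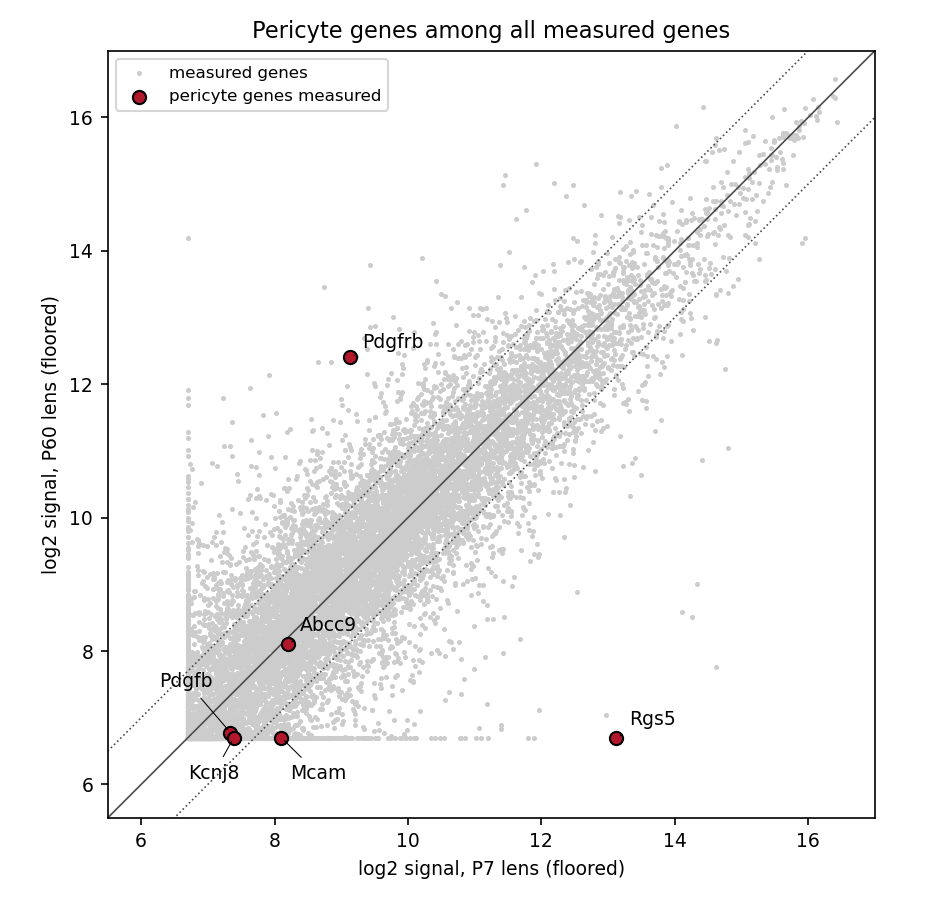
Log2 signal at P7 against P60 for the 13029 measured genes (grey), with values under the floor raised to it, and the 6 measured pericyte genes (red). The solid line marks equal signal and the dotted lines 2-fold. Rgs5 lies at the floor on the P60 axis, so its distance of 85.9-fold below the P7 value is close to a bound, and Pdgfrb above the upper dotted line at 9.72-fold.

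Other genes of pericytes, from a list of 22, went in both directions. Of 18 measured, 7 were lower by 2-fold or more (background 9.44%) and 3 higher (background 11.5%), with a median log2 ratio of -0.52. The lowest were the forkhead factor gene Foxc1 (454 at P7 and 27.9 at P60, at least 4.37-fold lower), the vascular connexin gene Gja4 (441 and 39.1, at least 4.25-fold) and the zinc finger factor gene Zic1 (3758 and 891, 4.22-fold). The highest were Vtn, which encodes vitronectin (66.6 at P7 and 458 at P60, at least 4.41-fold higher), and Ndufa4l2 (382 and 1268, 3.31-fold higher). Named after their values were seen, Notch3, the Notch receptor of mural cells, was 3.85-fold lower (980 and 254), and Ebf1, a transcription factor of mural cells, was at least 2.25-fold lower with all 4 measured probe sets lower. Higd1b, a further gene of brain pericytes also named after its values were seen, read 147 and 8.90 and was at least 1.41-fold lower. On the higher side S1pr3 and Ifitm1 are likewise named after their values were seen. S1pr3 was 3.31-fold higher on its brightest probe set (3852 and 12747), with its other probe sets at log2 ratios of 1.975 and -0.30. Ifitm1 was 1.91-fold higher (233 and 445). Tbx18, Lamc3 and Nkx3-2 did not exceed the floor at either age, and no probe set of 1 symbol was found for Ednra.

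Genes shared with smooth muscle and fibroblasts stood beside Pdgfrb on the higher side in part. Acta2, which encodes smooth muscle actin, was 11.8-fold higher at P60 on its brightest probe set (2764 and 32524). Its other measured probe set had a log2 ratio of 1.60. The smooth muscle genes Myh11, Cnn1, Lmod1, Smtn and Actg2 were under the floor at both ages, and Tagln read 109 at P7, just over the floor, and 10.6 at P60. Myl9, Mylk and Tpm2, which are not restricted to smooth muscle, had log2 ratios of 0.53, -0.19 and -0.26. The probe sets of Tpm2 ran from -1.30 to 0.59. Thus 1 of 5 measured genes of this list of 10 was at least 2-fold higher (background 11.5%) and none lower (background 9.44%). Their median was -0.07. The summed signals of the list were 6135 at P7 and 36076 at P60, of which Acta2 gave 2764 and 32524.

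Of 5 measured fibroblast genes from a list of 10, 3 were higher by 2-fold or more (background 11.5%) and 1 lower (background 9.44%), with a median of 1.11. Col1a2, which encodes a collagen I chain, was 9.21-fold higher (174 and 1604), the matrix gene Fbln1 3.70-fold (454 and 1681) and the PDGF receptor gene Pdgfra 2.16-fold (2732 and 5892). Postn was at least 3.79-fold lower (394 and 59.8), and Col3a1 read 158 and 25.4. Col1a1, Dcn, Lum, Dpt and Thy1, most of them abundant in fibroblasts, did not exceed the floor at either age. The summed signal of the list was 4106 at P7 and 9605 at P60. The part of fibroblasts, smooth muscle cells or lens cells in the Pdgfrb signal was not tested.

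Many genes of the endothelium, which pericytes adjoin, were lower in the P60 pool. Of 18 measured from a list of 20, 10 were at least 2-fold lower (background 9.44%) and none at least 2-fold higher (background 11.5%), with a median of -1.31 against 0.02 over all measured genes. The other 8 did not reach 2-fold on floored values, most of them as bounds. The lowest were Cldn5 (1086 and 70.4, at least 10.5-fold lower), Cd34 (652 and 8.36, at least 6.27-fold) and Esam (547 and 49.8, at least 5.26-fold), and the highest ratios were those of Erg (0.04) and Flt1 (-0.30). At P7 17 genes of the list exceeded the floor and at P60 5 did, and their summed signal was 7536 and 1769. Pecam1 and Tie1 did not exceed it at either age. Rgs5 and Mcam were thus lower in a pool in which endothelial transcripts were lower as well, and the part of vessel content in their ratios was not tested. In such bulk samples fewer cells of a type and less RNA per cell cannot be told apart.

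Macrophage genes lay mostly near the floor. Of 9 measured from a list of 12, 1 was at least 2-fold lower (background 9.44%) and none higher (background 11.5%). Their median was -0.24, and the summed signals of the list were 1755 at P7 and 1192 at P60. Fcer1g was at least 2.10-fold lower (218 and 97.4), Mrc1 read 173 and 33.1, Cx3cr1 138 and 77.1, C1qc 126 and 113, and Csf1r 420 and 429. Globin genes with probe sets of their own were measured for 2 of 8 names, Hba-a2 (179 and 18.9) and Hbb-b2 (173 and 5.96), both under the floor at P60. Hba-a1, Hbb-y and Alas2 were under the floor at both ages, and Hbb-b1, Hbb-bs and Hbb-bt had no probe set of 1 symbol.

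**Figure D3:**
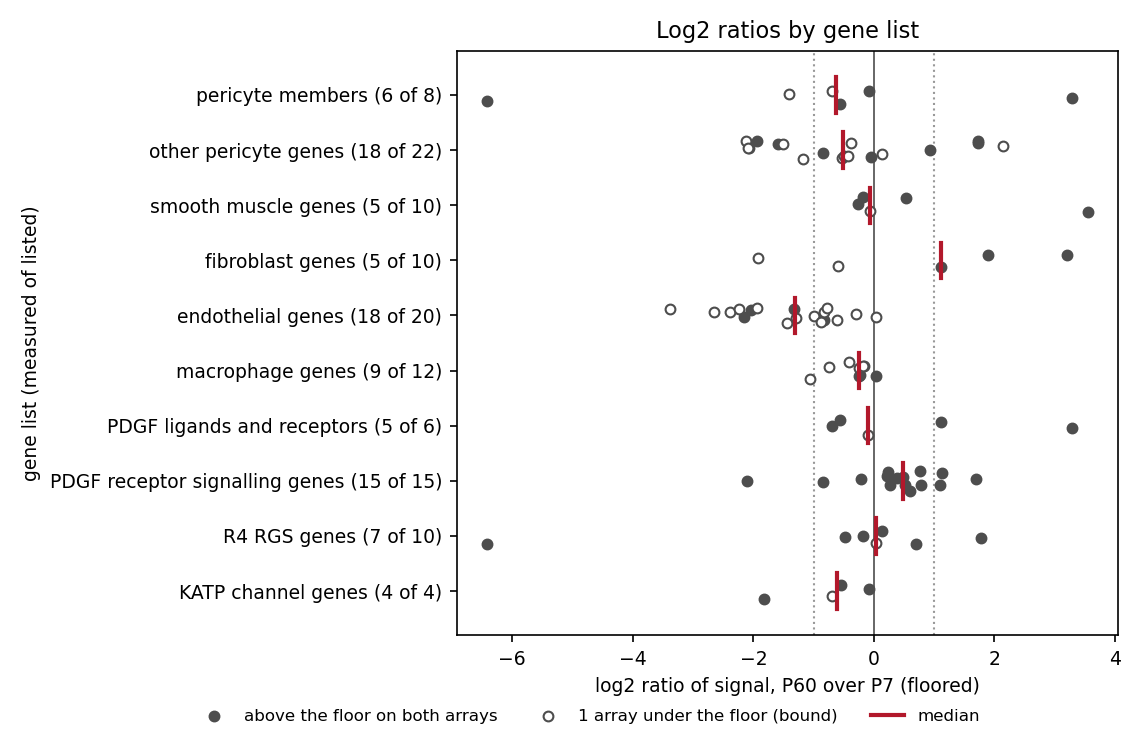
Log2 ratio of signal, P60 over P7, for each measured gene of 10 lists, with filled points for genes above the floor at both ages, open points for bounds, a red bar at the median and dotted lines at 2-fold. Endothelial genes lie mostly left of 0 with a median of -1.31, fibroblast genes mostly right with 1.11, and the pericyte genes span -6.43 to 3.28.

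Within the PDGF family, both receptor genes and no ligand gene passed 2-fold on floored values (background 9.44% lower and 11.5% higher). Pdgfrb and Pdgfra were higher at P60 by 9.72-fold and 2.16-fold. Pdgfra, the receptor of lens epithelial cells for PDGF-A, had a second measured probe set with a log2 ratio of 0.29. Among the ligand genes Pdgfa read 1020 and 629 (-0.70) and Pdgfd was under the floor. Pdgfc was near the floor on its brightest probe set with 111 and 61.8, and its other probe set stood at -0.97. Of 15 genes that carry the signal inside the cell, 3 were higher by 2-fold or more (background 11.5%) and 1 lower (background 9.44%), with a median of 0.49. The highest were the transcription factor gene Stat3 (1.69, with a probe set at -0.54) and the kinase gene Src (1.14), and the lowest were the adaptor genes Shc1 (-2.11, its other probe set at -0.45), Nck1 (-0.84) and Crkl (-0.22).

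Other genes of the R4 subfamily, to which Rgs5 belongs, had ratios nearer 0. Of 6 measured besides Rgs5 in a list of 10, none was at least 2-fold lower (background 9.44%) and 1 was higher (background 11.5%). Rgs4, a close relative, was 3.44-fold higher on its brightest probe set (1191 and 4102), with another probe set at -0.49. Rgs16 stood at 0.71, Rgs3 at 0.13, Rgs1 at 0.03, Rgs2 at -0.18 (its probe sets reached -1.06) and Rgs8 at -0.49. Rgs13 and Rgs18 were under the floor, and Rgs21 had no probe set of 1 symbol. Each ratio comes from the same pair of arrays, and the difference between Rgs5 and its relatives was not tested.

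The other ATP-sensitive potassium channel genes, known from pancreatic beta cells, were above the floor at both ages on their brightest probe sets. Abcc8, the SUR1 gene, was 3.52-fold lower at P60 (1181 and 335) with its other probe set at -2.13, and Kcnj11, the Kir6.2 gene, read 1327 and 911 (-0.54). All 4 channel genes had ratios below 0, though that of Abcc9 was -0.09 and that of Kcnj8 a bound. Of the 4, 1 was at least 2-fold lower (background 9.44%).

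The 5 genes nearest to Rgs5 on the log2 signals of both arrays, among 13028, were Xist at a distance of 0.37, Ednrb at 1.24, E330034G19Rik at 1.24, Igf2 at 1.32 and Rsad2 at 1.74. Ednrb is an endothelin receptor, Igf2 a fetal growth factor and Rsad2 an antiviral enzyme. Their signals at P7 and P60 were 3980 and 139 for Ednrb, 3780 and 91.7 for E330034G19Rik, 3573 and 68.8 for Igf2, and 2694 and 114 for Rsad2. Each was bright at P7 and near or under the floor at P60. Xist, the RNA of the inactive X chromosome of female cells, read 8002 and 131, and its other probe sets 5284 and 11.3, and 1957 and 8.28. The labels do not give the sex of the animals, so a difference in the share of female lenses and a difference in age cannot be told apart. Likeness over only 2 arrays is a weak measure.

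Both arrays had a trimmed mean of 500.0, with 2% of probe sets cut at each end, and 52.2% of all 45101 probe sets exceeded the floor at P7 and 47.8% at P60. All 10 of the lens genes with a probe set were above the floor at both ages and within 2-fold on their brightest probe sets. For comparison, 9.44% of all measured genes were at least 2-fold lower and 11.5% higher. The ratios of the lens genes ran from Gja3 (-0.29), Mip (-0.12) and Cryaa (-0.08) to Birc7 (0.75) and Grifin (0.76). The other probe set of Gja3 stood at -1.30. The bioB hybridisation control, usually added in equal amounts to every sample, was 4.71-fold to 9.16-fold higher at P60 on 6 probe sets (170 to 539 at P7 and 1292 to 2541 at P60). The bioC, bioD and cre controls differed by at most 1.56-fold. The ratio of 5′ to 3′ signal was lower at P60 for all 6 controls examined, among them beta-actin (0.785 and 0.606), Gapdh (1.39 and 1.29) and the dap spike-in (0.0995 and 0.0262). The part of these control differences in the results for the pericyte genes was not tested.

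Under the other settings Rgs5 stayed lower and Pdgfrb higher at P60 by at least 2-fold. The log2 ratio of Rgs5 ran from -6.43 to -2.19, the weakest with its dimmest probe set, and that of Pdgfrb from 2.04 to 3.28. The weakest Rgs5 ratio is a bound, since its dimmest probe set read 474 at P7 and 6.66 at P60, under the floor. Mcam ran from -2.41 to -1.16 where it could be measured. Kcnj8 passed 2-fold only with the floor at 52.0, with a ratio of -1.29.

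**Figure D4:**
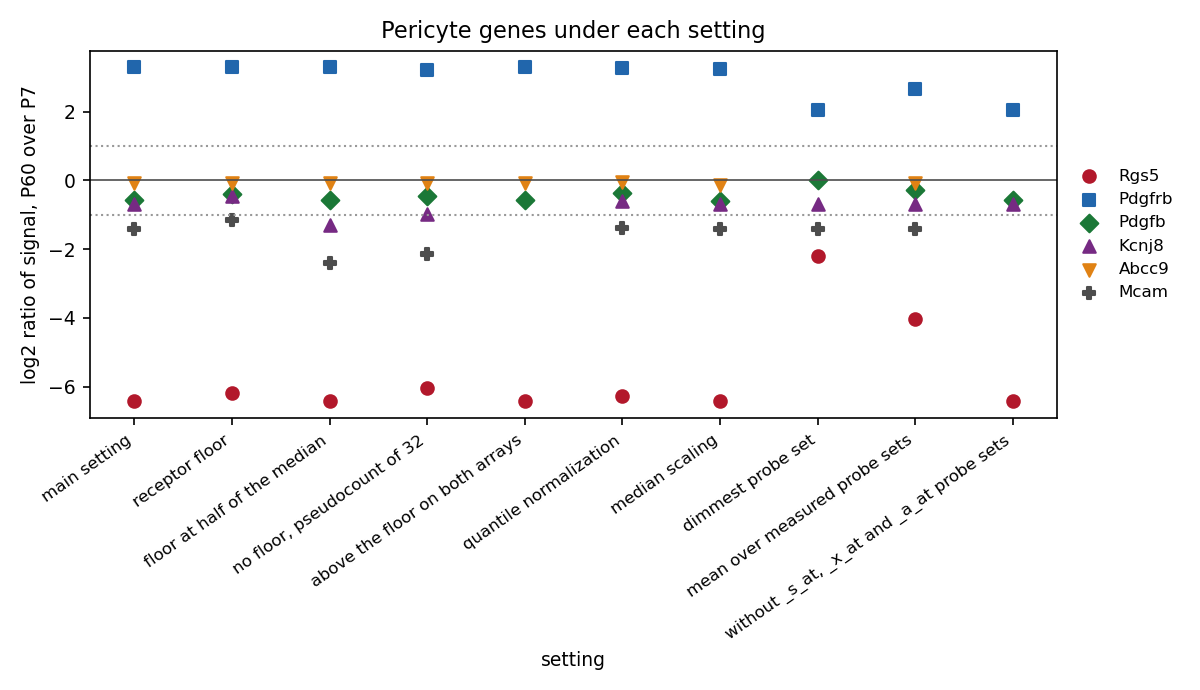
Log2 ratio of signal, P60 over P7, of the 6 measured pericyte genes under the main setting and 9 alternatives, with dotted lines at 2-fold. Rgs5 lies between -6.43 and -2.19 and Pdgfrb between 2.04 and 3.28 in all 10, and a gene without a point had no measured probe set there. The Rgs5 ratio of -2.19 is a bound set by the floor.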

How the data were processed

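The authors deposited 1 signal intensity for each probe set on each array, made with MAS5 per the submitters' processing notes. Its version and settings are not stated there, and detection calls were not used here. Per the labels' protocols, DNase-treated total RNA of pooled lenses was amplified and labelled with biotin. Of 45101 probe sets, 34958 had a single symbol in the platform annotation, 932 several and 9211 none, and 34754 were matched to a current gene. No probe set with several symbols named a pericyte gene. Log2 ratios were computed in Python 3.11.15 with pandas 2.3.3 after raising values to the floor of 103.9. The calculation was tested on simulated data with differences planted in genes well above the floor at P7. That test did not cover differences in genes near or under the floor. With 1 array per age no test was possible, and the number of arrays limits the precision.

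The pericyte genes and the gene lists were chosen with earlier results of these data known. All probe sets of the 8 genes are given. Lists of 10 or fewer genes are named in full, and longer ones by their 3 lowest and 2 highest ratios, with exceptions stated beside them.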

Additional observations from a re-analysis of the deposited data

How the results depend on the processing

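No paired analysis was possible because each age has 1 array. The count of 2 pericyte genes at least 2-fold lower was 1 when both arrays had to exceed the floor, 1 without probe sets of the _s_at, _x_at and _a_at types and 1 at a 4-fold limit, and it lay between 1 and 3 in all 12 settings. For the 3 settings named first the background was 8.38%, 9.44% and 1.47%, among 4, 4 and 6 measured pericyte genes. The first 2 of these settings leave out Mcam by construction. The count of 3 was among 8 measured genes with the floor at 52.0 (background 12.8%). It was also among 8 with 32 added to every signal and no floor (background 12.8%), and among 6 at a 1.5-fold limit (background 20.1%). The count of 5 probe sets was 1, among 6 left, when both arrays had to exceed the floor. That setting leaves out by construction the Mcam probe set and the Rgs5 probe sets under the floor at P60. The share over all probe sets was not computed for it. In each of the 12 settings 1 pericyte gene was higher, among 4 to 8 measured. The background for this ran from 2.09% at a 4-fold limit to 22.7% at a 1.5-fold limit. The median log2 ratio of the pericyte genes ran from -0.72 to -0.32 over 10 settings. Alternatives for the gene lists were added after seeing the data: 3 to 11 of the other pericyte genes and 3 to 15 of the endothelial genes were at least 2-fold lower. The 11 were among 21 measured with the floor at 52.0 (background 12.8%). The 15 were among 20 with 32 added to every signal and no floor (background 12.8%). The smallest counts came when both arrays had to exceed the floor, which left 8 and 4 genes measured (3 of 8 and 3 of 4, background 8.38%). From 1 to 5 fibroblast genes were higher. These were 1 of 2 with the dimmest probe set (background 9.70%) and 5 of 10 with 32 added (background 10.4%). From 0 to 4 macrophage genes were lower, 4 of 10 with the floor at 52.0 (background 12.8%). Low signal limits Pdgfb, Kcnj8, Cspg4 and Anpep.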

Other observations

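Among probe sets that belong to no gene, the 3 controls for short interspersed repeats of the mouse were lower at P60. The B1 repeat control read 46162 at P7 and 1410 at P60, 32.7-fold lower, and the B2 controls were 1.73-fold and 3.59-fold lower. A difference in transcripts that carry such repeats, in genomic DNA or in labelling was not tested.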
